A study of Homo sapiens with 5 samples.

Results

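The genes described here are 10 transcription factor and immediate early genes, namely FOS, FOSB, FOSL1, FOSL2, JUN, JUNB, JUND, ATF3, EGR1 and IER2. Their H3K27ac peaks were chosen by position alone, as those centered no more than 10 kb from where any GENCODE release 44 transcript of a member starts. This rule gave 26 of the 20087 peaks of the table, and each of the 10 genes had at least 1 peak. H3K27ac is acetylation of histone H3 at lysine 27, a mark of active promoters and enhancers, and ChIP-seq counts the DNA fragments that carry it. The cells were HCT116 CMV-osTIR1 RAD21-mAC, a derivative of the HCT116 colorectal carcinoma line in which the CMV promoter drives the auxin receptor osTIR1 and RAD21 carries a degron tag. Both groups were first kept in 0.1% DMSO for 6 h. The IFN-β group, with 2 libraries, next received IFN-β, at 1000 unit/ml and over 1 h, while the control group, with 2 libraries, had no further treatment. The labels place the IFN-β libraries at 60 min and the control libraries at 0 min, so that IFN-β and 1 h of further culture cannot be told apart. An input library was also made, and it is not analysed here. The labels do not say whether the libraries of a group came from separate cultures.

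Immediate early genes are transcribed within minutes of a stimulus, without the need for new protein. FOS and JUN family proteins pair through their leucine zippers to form AP-1, which binds DNA at the motifs TGACTCA and TGAGTCA, while ATF3 is a related zipper factor that can also bind the cAMP response element (CRE). EGR1 is a zinc finger factor, and IER2 is a small nuclear protein induced with them. Mitogen and stress kinases reach many of these promoters through the serum response factor SRF, which binds the CArG box, and its ETS partners. Genes induced by interferon are instead known for the interferon-stimulated response element (ISRE) in their promoters. In epithelial cells AP-1 is best known for its part in growth, migration and wound responses.

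The authors' table gives a single mean per group for each peak, as the log2 of normalized reads, so no value per library and no SD could be had, and no test was run here; the authors' own fold-changes and test columns in the table were not used. Levels are given here as normalized reads per kb of peak. Differences are the IFN-β log2 value minus the control log2 value. Over all 20087 peaks the median difference was -0.69, which is 1.61-fold lower in the IFN-β group, and the summed normalized reads were 876825 in control and 540427 after IFN-β. Each difference is therefore also given relative to this table median, and is then called the centered difference. A 95% counting interval accompanies it, an exact binomial interval that treats the normalized reads of both libraries as reads. It covers counting error only, and not the spread between libraries. Of 12 epithelial markers, 10 had a peak within 1 kb of a start site, among them EPCAM, KRT8 and CDH1, whereas VIL1 and CDX1 had none. Of 9 markers of blood, stromal, endothelial and liver cells, COL1A1 alone had such a peak.

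The promoter peaks were searched for known sites, and 4 promoter peaks contained a CArG box, namely those of FOS, FOSB, EGR1 and IER2. These matches are shown because the CArG box is the element through which serum response factor is known to act on FOS and EGR1. All are read from GRCh38 on the plus strand, which is the coding strand of these 4 genes, and capitals mark the CArG box.
FOS, chr14:75278494-75278543: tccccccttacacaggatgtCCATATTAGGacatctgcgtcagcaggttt
FOSB, chr19:45467702-45467751: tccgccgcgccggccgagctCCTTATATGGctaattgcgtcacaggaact
EGR1, chr5:138465041-138465144: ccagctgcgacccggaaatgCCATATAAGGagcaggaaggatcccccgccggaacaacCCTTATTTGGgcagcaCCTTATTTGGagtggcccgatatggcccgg
IER2, chr19:13151834-13151883: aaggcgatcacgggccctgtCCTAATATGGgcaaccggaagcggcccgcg
The FOS box was centered 308 bp before the gene's start and the FOSB box 268 bp before its own. EGR1 carried 3 boxes within its peak, at 414, 376 and 360 bp before its start. The IER2 box lay 116 bp before an inner IER2 start, and downstream of the gene's outer start.

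EGR1 also has CArG boxes closer to its start, which lay beyond the end of its H3K27ac peak. The 250 bases before the EGR1 start in the RefSeq promoter table (GRCh38.p14, plus strand) are shown for this reason, with CArG boxes beginning 105 and 83 bp before the start and a STAT site (TTCNNNGAA) beginning 228 bp before it, all in capitals.
EGR1, chr5:138465229-138465478: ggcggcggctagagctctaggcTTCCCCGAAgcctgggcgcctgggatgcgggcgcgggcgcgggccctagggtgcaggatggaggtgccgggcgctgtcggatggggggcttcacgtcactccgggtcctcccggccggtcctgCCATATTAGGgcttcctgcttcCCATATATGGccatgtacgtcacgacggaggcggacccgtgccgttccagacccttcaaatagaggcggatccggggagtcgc
Of this stretch, 139 bases fell inside the EGR1 peak.

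A second set of sites is the CRE (TGACGTCA) and AP-1 motifs, through which AP-1 and ATF factors can bind their own genes. The CRE was found in the promoter peaks of FOSB and JUND, and the AP-1 motif in those of FOSL1 and FOSL2. Further AP-1 sites, picked after the values were seen, are shown from distal peaks with high centered differences upstream of JUNB and ATF3. Other distal peaks with the motif lay below the table median, at -0.44 for JUND and at -0.27, -0.57 and -0.84 for IER2. Of the 11 member peaks that hold an AP-1 motif, 6 lay above the table median. Capitals mark the motif, and JUND and FOSL1 are written on the minus strand, which is their coding strand.
FOSB CRE, chr19:45467651-45467698: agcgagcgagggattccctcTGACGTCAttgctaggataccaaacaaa
JUND CRE, chr19:18281795-18281842: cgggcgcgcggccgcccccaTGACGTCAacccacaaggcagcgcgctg
FOSL1 AP-1, chr11:65899366-65899412: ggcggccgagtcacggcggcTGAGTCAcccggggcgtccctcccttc
JUNB distal AP-1, chr19:12783037-12783177: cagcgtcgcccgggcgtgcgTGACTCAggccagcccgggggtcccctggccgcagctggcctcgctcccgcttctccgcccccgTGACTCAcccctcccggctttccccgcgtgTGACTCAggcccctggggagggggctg
ATF3 distal AP-1, chr1:212561566-212561612: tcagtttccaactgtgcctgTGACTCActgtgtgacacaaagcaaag
The JUNB stretch holds 3 AP-1 motifs, the first of them 8426 bp before the JUNB start, and the ATF3 site lay 3745 bp before the start of the ATF3 gene.

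**Figure D1:**
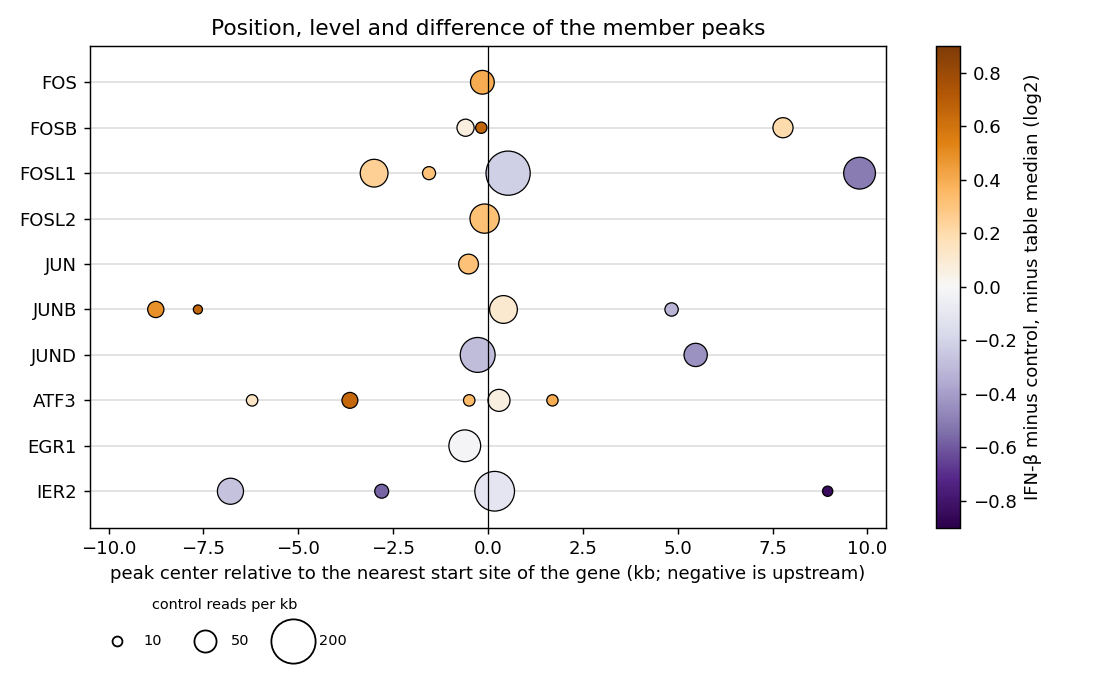
Each circle is 1 of the 26 member peaks, placed by the distance of its center from the nearest start site of its gene (x axis, kb, negative is upstream), with its area set by the control level in reads per kb and its color by the centered log2 difference. The ATF3 and FOSB peaks lie above the table median on both sides of the start, and those of JUND and IER2 lie below it.

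FOS, the founding partner of AP-1, had a single peak, at chr14:75278178-75279178, with its center 148 bp upstream of its start. Its level was 57.7 reads per kb in control and 47.2 after IFN-β. The log2 difference was -0.29 and the centered difference 0.40, with a counting interval of -0.008 to 0.805. The FOS promoter was thus lower after IFN-β in normalized reads but less so than the typical peak, and its interval just held the table median.

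FOSB, a FOS relative that is also induced early, had its promoter peak at chr19:45467318-45468318, centered 177 bp upstream of the start, where FOSB overlaps an intron of the DNA repair gene ERCC1. The level there was 13.1 reads per kb in control and 12.8 after IFN-β. The centered difference of 0.66 was the highest among the 10 promoter peaks, and its interval of -0.184 to 1.503 was also the widest. FOSB had the weakest promoter peak of the 10 genes, so this value rests on the fewest reads. A second FOSB peak, centered 592 bp upstream of the start of a shorter transcript, went from 30.1 to 19.6 reads per kb, with a centered difference of 0.07. The last lay 27 bp from an ERCC1 start and 7776 bp from the nearest FOSB start, and it had a centered difference of 0.20.

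FOSL1, which encodes FRA1, the FOS family member most tied to invasive carcinoma cells, carried the strongest promoter peak. At chr11:65899358-65900358, in an intron of FOSL1 and 530 bp downstream of a FOSL1 start, the level was 199 reads per kb in control and 106 after IFN-β. The log2 difference was -0.91 and the centered difference -0.22, with an interval of -0.47 to 0.02. Further peaks 1554 bp and 3002 bp upstream had centered differences of 0.31 and 0.25, and the second of them was strong, at 78.8 reads per kb in control and 58.1 after IFN-β. The upstream intervals were -0.47 to 1.08 and -0.108 to 0.605. These upstream peaks and the promoter peak of FOSL1 thus lay on opposite sides of the table median, but the interval of each held it. The last FOSL1 peak, 9794 bp downstream, belongs by position to CCDC85B, whose start was 79 bp away. It went from 103 to 44.9 reads per kb, and its centered difference of -0.51 had an interval of -0.88 to -0.15. It was the only one of the 26 member peaks whose interval lay below the table median, against 4.47% of all peaks.

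FOSL2, which encodes FRA2, had a single strong peak at chr2:28392213-28393213, centered 89 bp upstream of an annotated start. The level was 87.4 reads per kb in control and 67.6 after IFN-β, with a centered difference of 0.32 and an interval of -0.01 to 0.65. Among the 9 peaks of the 4 FOS family genes, 7 lay above the table median. Their median centered difference was 0.25, and that of the 4 promoter peaks was 0.36. FOSL1 was the only FOS family promoter below the table median.

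JUN, the principal DNA-binding partner of FOS, had a single peak at chr1:58784061-58785061, centered 513 bp upstream of its start in an exon of the long noncoding RNA LINC01135. The level was 39.9 reads per kb in control and 30.7 after IFN-β. The centered difference was 0.31, with an interval of -0.19 to 0.81, so the JUN promoter could not be told from the table median by counting error alone. The first base of the gene lay 13 bp beyond the edge of the peak.

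JUNB, an early induced JUN relative that can restrain JUN, had its promoter peak over the coding exon at chr19:12791394-12792394. The level was 78.8 reads per kb in control and 52.7 after IFN-β, with a centered difference of 0.11 and an interval of -0.26 to 0.48. The 3 other peaks lay in introns of HOOK2, a gene of the cytoskeletal hook family that runs across JUNB. Upstream, at chr19:12782229-12783229 where the AP-1 motifs printed above lie, the level went from 26.9 to 23.4 reads per kb, with a centered difference of 0.49. A weak peak next to it, at chr19:12783339-12784339, was at 8.46 reads per kb in control and 8.28 after IFN-β, and its centered difference of 0.66 had an interval of -0.41 to 1.73. The downstream HOOK2 peak lay below the table median, going from 18.3 to 9.0 reads per kb. Its centered difference of -0.33 had an interval of -1.23 to 0.52, which held the table median. Over the 4 JUNB peaks the centered difference therefore spanned 0.99 on the log2 scale.

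JUND, the JUN family member that is expressed in most resting cells, lay below the table median at both of its peaks. The promoter peak at chr19:18281394-18282394, centered 272 bp upstream of the start, went from 124 reads per kb in control to 63.1 after IFN-β. Its centered difference was -0.29, with an interval of -0.61 to 0.03. A second peak 5474 bp downstream, 955 bp from the start of IQCN, went from 55.3 to 25.3 reads per kb, with a centered difference of -0.44. With both peaks summed, the centered difference of JUND was -0.33 and its counting interval of -0.60 to -0.07 lay below the table median. This sum includes the peak near IQCN, and the interval of the promoter peak alone held the table median. How many other genes of the table have such a summed interval was not counted. Over the 7 peaks of the 3 JUN family genes, 4 lay above the table median.

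**Figure D2:**
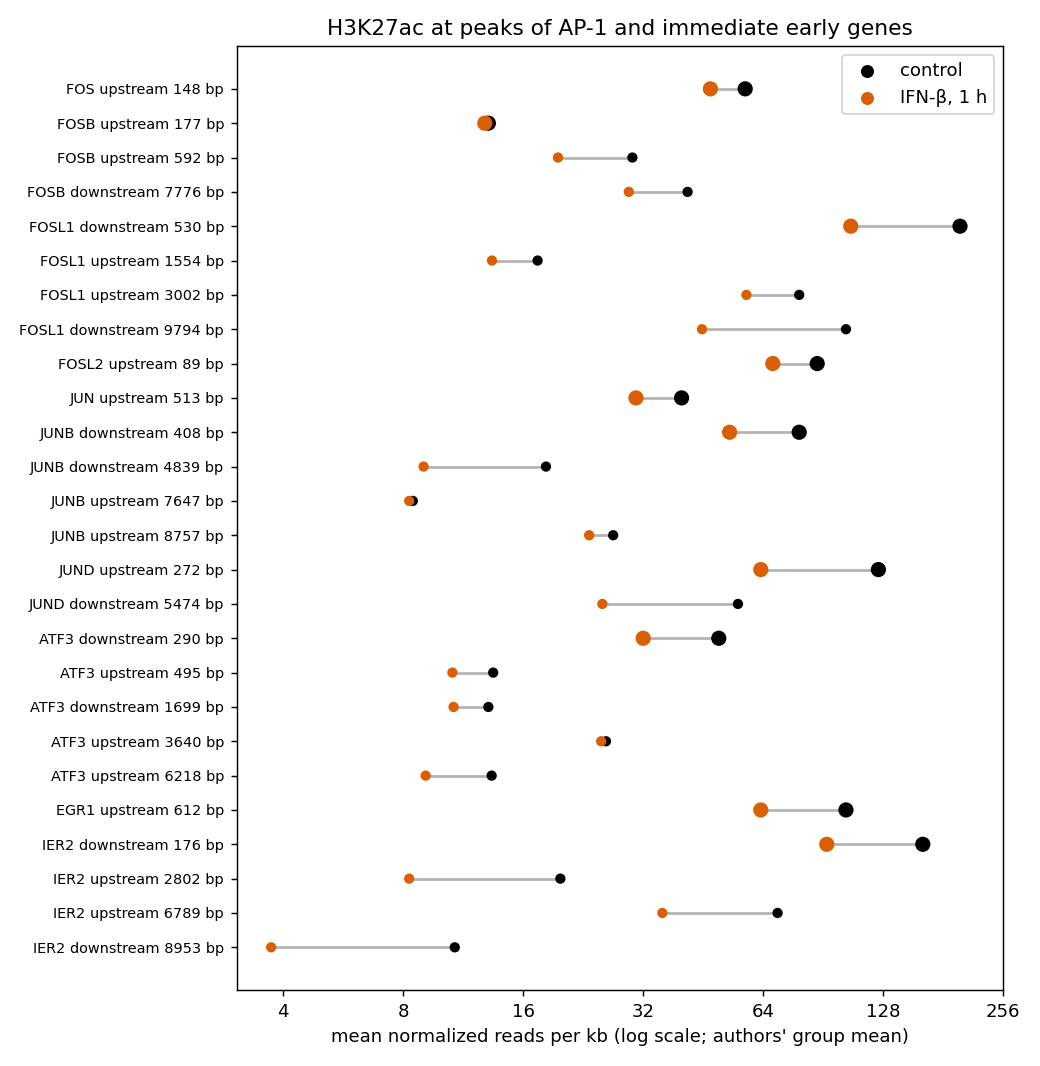
Each row is 1 of the 26 member peaks, named by its gene and the distance of its center from the nearest start site, with the authors' mean normalized reads per kb of the 2 control libraries (black) and of the 2 IFN-β libraries (orange) on a log axis. Larger points are the promoter peaks, the control point lies to the right in 26 of 26 rows, and no error is drawn because the table holds no value per library.

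ATF3, a stress-induced factor of the ATF and CREB family, had the most peaks, 5, and all 5 lay above the table median. The strongest, at chr1:212608705-212609705 and 290 bp downstream of an inner start, went from 49.5 to 32 reads per kb, with a centered difference of 0.06 and an interval of -0.42 to 0.53. The peak beside it, 495 bp upstream of another inner start, went from 13.5 to 10.6 reads per kb, with a centered difference of 0.35. Near the outer start of ATF3, a peak 1699 bp downstream had 13.1 reads per kb in control and 10.7 after IFN-β, with a centered difference of 0.40. These ATF3 peaks all had intervals that held the table median.

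The peak at chr1:212561194-212562194 lay 3640 bp upstream of the outer start of ATF3, outside any annotated gene. Its level was 25.8 reads per kb in control and 25.1 after IFN-β, a log2 difference of -0.04. The centered difference was 0.65, with an interval of 0.06 to 1.24, and this was the only one of the 26 intervals above the table median (6.03% of all peaks had such an interval). The fifth ATF3 peak, 1417 bp wide and 6218 bp upstream, lay in an exon of a long noncoding RNA and had a centered difference of 0.14. Summed over its 5 peaks, ATF3 had a centered difference of 0.29, with an interval of 0.002 to 0.57, whose lower end all but met the table median. The outer ATF3 start itself lay 1199 bp from the nearest peak, so the labelled promoter peak of this gene is that of an inner start.

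EGR1, a zinc finger factor that responds to growth factors within minutes, had a single peak at chr5:138464367-138465367, centered 612 bp upstream of its start. It went from 103 reads per kb in control to 63.1 after IFN-β. The log2 difference of -0.71 was next to that of the table, and the centered difference was -0.02, with an interval of -0.35 to 0.31. EGR1 was thus the member closest to the table median, with 47.2% of all peaks below it.

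IER2, an early response gene of the same wave, had 4 peaks, and all 4 lay below the table median. The promoter peak at chr19:13151651-13152651, over an untranslated exon of IER2, was the second strongest of the 10 and went from 161 to 92.4 reads per kb. Its centered difference was -0.11, with an interval of -0.38 to 0.16. The outer start of IER2 lay 1240 bp from the nearest peak, so this promoter peak is that of an inner start. The other 3 peaks of IER2 lay further from the table median than its promoter did. The peak 6789 bp upstream went from 69.6 to 35.8 reads per kb, with a centered difference of -0.27, and that 2802 bp upstream, in an intron of the vesicle transport gene STX10, from 19.8 to 8.28 reads per kb, with a centered difference of -0.57. The weakest, 8953 bp downstream, went from 10.8 to 3.73 reads per kb. Its centered difference of -0.84 was the lowest of the 26, and its interval of -2.27 to 0.42 was the widest.

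Set in order of control level, the promoter peaks ran from FOSL1 at 199 reads per kb through IER2, JUND, EGR1, FOSL2, JUNB, FOS, ATF3 and JUN to FOSB at 13.1 reads per kb, a range of 15.2-fold. The FOSL1 promoter had a higher level than 99.6% of all peaks, IER2 than 98.8% and JUND than 96.4%, while FOSB exceeded 19.0%. For 6 of the 9 pairs of neighbors in this order the 95% counting intervals overlapped. The intervals did not overlap between FOSL1 (180 to 220 reads per kb) and IER2 (144 to 179), between IER2 and JUND (110 to 141), or between JUN (31.7 to 49.7) and FOSB (8.56 to 19.2). After IFN-β the order was kept, or the values were equal, within 8 of the 9 neighboring pairs. The median promoter level of the members was 83.1 reads per kb in control and 57.9 after IFN-β, and that of all 11334 peaks within 1 kb of a protein-coding start was 43.1 and 25.8.

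Relative to the whole table, the 26 member peaks lay close to its middle. The uncentered difference was below 0 in 26 of 26, and it was above 0 in 5.93% of all peaks. After centering, 16 of 26 lay above the table median, against 49.1% of all peaks, and the median centered difference was 0.125, with single peaks between -0.84 and 0.66. Being past 1.5-fold after centering was reached upward by 3 member peaks (those of FOSB, JUNB and ATF3 at 0.66, 0.66 and 0.65), against 8.38% of all peaks. Downward it was reached by 1, the distal peak of IER2, against 5.43%. Of all peaks beyond 1 kb of a protein-coding start, 60.6% lay above the table median. Past 1.5-fold were 13.9% of them upward and 7.07% downward. Of the 14 member peaks beyond 1 kb of a member start, 8 (57.1%) lay above the table median. Those near ERCC1, CCDC85B and IQCN were within 1 kb of that gene's start, so the 2 shares are not defined alike. The counting interval held the table median for 24 of 26 member peaks. The SD of the centered difference was 0.41 over the 26 peaks and 0.46 over the table.

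Among the 10 promoter peaks, 6 lay above the table median (FOS, FOSB, FOSL2, JUN, JUNB and ATF3), against 40.3% of all peaks within 1 kb of a protein-coding start. Past 1.5-fold upward was FOSB alone, against 4.09%, and downward none, against 4.16%. The median centered difference of the 10 promoters was 0.085, while all such peaks had a median of -0.06. All 10 intervals held the table median. Promoters with high levels, those of FOSL1, IER2, JUND and EGR1, had centered differences between -0.29 and -0.02, and the other 6 had values between 0.06 and 0.66. Over the table, the 4903 peaks under a control log2 signal of 4 had a median of 0.26. Without the 492 at the lowest control value it was 0.19. Peaks at a control log2 signal of 4 or more had a median of -0.04. Lower level thus went with a higher centered difference outside these genes too. The control value is subtracted in the difference, so this relation is partly built in. Of the 10 promoters, FOSB alone was under this split. The table was also cut into 10 equal groups by mean signal, and each peak was set against the median of its group. The FOSL1, IER2, JUND, EGR1 and FOSL2 promoters all fell in the group with the highest signal. FOSL1 then stood at -0.12, JUND at -0.19, IER2 at -0.01 and EGR1 at 0.08. FOS stood at 0.43, FOSB at 0.60, FOSL2 at 0.42, JUN at 0.33, JUNB at 0.18 and ATF3 at 0.08.

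**Figure D3:**
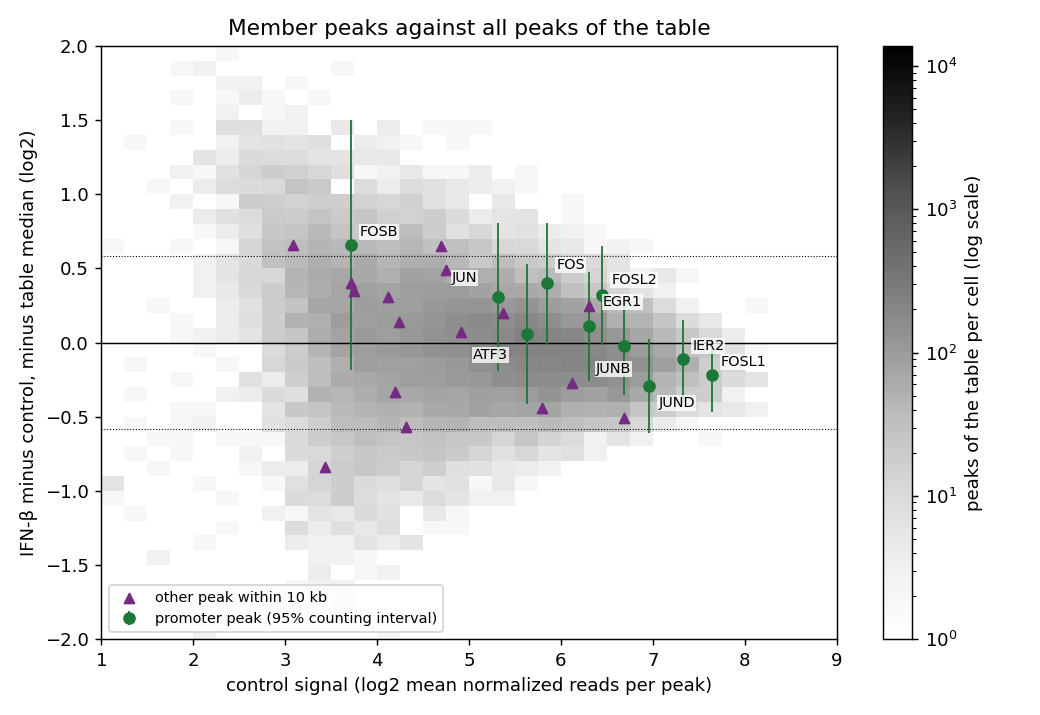
The grey cells count all peaks of the table by control log2 signal per peak (x axis) and centered log2 difference (y axis), with 592 peaks beyond the axes. Green circles are the 10 promoter peaks with 95% counting intervals and purple triangles the other 16 member peaks. Dotted lines mark 1.5-fold, and the members sit within the body of the table, with FOSB alone among the promoters above the upper line.

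Peaks nearest to a member and peaks nearest to another gene differed in their values, and this was not tested. The 18 peaks whose nearest protein-coding start was that of a member had a median centered difference of 0.195, and 13 of them lay above the table median. The 8 peaks nearer to another gene, such as CCDC85B, HOOK2, IQCN, STX10 and ERCC1, had a median of -0.30, and 3 of them lay above it. Among these 8 the values nevertheless ran from -0.57 near STX10 to 0.66 in HOOK2. Just inside the distance limit was the CCDC85B peak near FOSL1, at 9794 bp and a centered difference of -0.51. Just outside were a peak 10209 bp from the JUNB start and 92 bp from that of PRDX2, at -0.47, and one 10816 bp from JUND, at 0.11. Between 10 and 20 kb there were 17 peaks, 10 of them above the table median, with a median of 0.11.

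Consensus motifs were counted on both strands within 500 bp of each peak center. The AP-1 motif was present in 11 of 26 member peaks (42.3%) and in 27.3% of all peaks. The 13 sites in those 11 peaks lay mostly in distal peaks of JUNB, ATF3 and IER2, while only FOSL1 and FOSL2 carried one in the promoter peak. For the 3 IER2 sites, the 27 bases centered on the motif occurred more than once in the genome, whereas for the other 10 they occurred once. Member peaks with an AP-1 motif had a median centered difference of 0.14 and those without it 0.11. Of the 11 with the motif, 6 lay above the table median, and of all 26 member peaks 16 did.

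The CArG box was present in 5 of 26 member peaks (19.2%), 4 of them promoters, against 3.97% of all peaks and 3.07% of peaks within 1 kb of a protein-coding start. In the RefSeq table, 1.16% of 35116 upstream stretches of 250 bases held it. These stretches are shorter than the windows searched in peaks. Of the 9 members matched there, only EGR1 held a CArG box in its 250 bases. The 4 promoters with a CArG box did not share a direction, since FOS and FOSB had centered differences of 0.40 and 0.66, and EGR1 and IER2 of -0.02 and -0.11. The CRE was in 3 of 26 member peaks (FOSB, JUND and a distal ATF3 peak), against 2.79% of all peaks. The FOSB and JUND promoters, which share it, had centered differences of 0.66 and -0.29.

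The ISRE core was in 1 of 26 member peaks, that 1699 bp downstream of the ATF3 start, and in 11.6% of all peaks. The STAT site (TTCNNNGAA) was in 6 of 26, among them the promoters of FOSL1 and EGR1, or 23.1%, and in 21.8% of all peaks. The NF-kB consensus was in 5 of 26 and in 20.3% of all peaks. An EGR1 site (GCGTGGGCG) was in the FOSL1 promoter and the distal JUNB peak, against 2.25% of all peaks, and an ETS site (CCGGAAGT) in the JUN promoter, against 6.99%. The TATA motif (TATAAA) was in 11 of 26, among them the promoter peaks of FOS, FOSB, JUN, JUNB and ATF3, and in 28.6% of all peaks. It lay 28 bp before the start in FOS and JUNB and 26 bp in FOSB. In JUN it lay 914 bp before the start, and in ATF3 184 bp before an inner start. These are matches to letters and not measured binding.

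The ATF3 peak with the ISRE core is shown for this reason, in GRCh38 on the plus strand, with 1 of its 2 core matches in capitals.
ATF3 ISRE core, chr1:212567036-212567085: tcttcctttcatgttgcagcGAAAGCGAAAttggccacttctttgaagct
JUN and ATF3 also carry a variant of the CRE, TGACATCA, that was searched for after their sequences had been seen. It lay 63 bp before the RefSeq start of JUN, inside the JUN peak, and 119 bp before the outer RefSeq start of ATF3, outside the member peaks. Both are on the coding strand, which is the minus strand for JUN.
JUN, chr1:58784087-58784134: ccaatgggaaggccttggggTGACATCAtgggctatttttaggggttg
ATF3, chr1:212565264-212565311: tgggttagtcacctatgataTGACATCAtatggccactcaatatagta
The variant was in 2 of 26 member peaks and in 2.94% of all peaks, and the JUN promoter that holds it had a centered difference of 0.31.

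**Figure D4:**
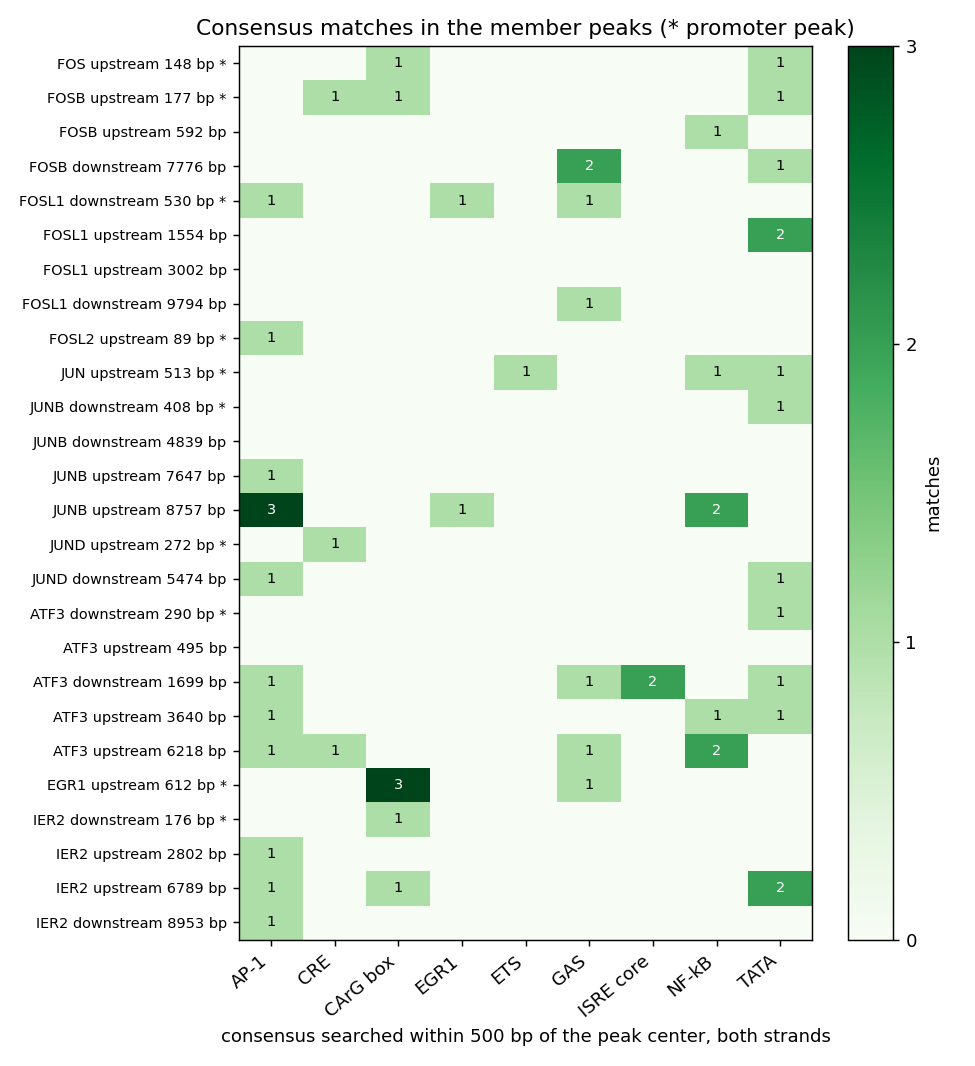
Each cell gives the number of matches of a consensus (columns) within 500 bp of the center of a member peak (rows, named by gene and distance, with * for a promoter peak). EGR1 and the distal JUNB peak hold 3 matches of the CArG box and of the AP-1 motif, and the ISRE column is filled only for 1 ATF3 peak.

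The genes that work with the members were read in the same way. Each list mixes promoter and distal peaks, and the shares over the table differ between these, as given above. Of 18 dimer partners and related zipper factors, 16 had a peak within 1 kb of a start, and BATF and BATF3 did not. Their 28 peaks within 10 kb had a median centered difference of 0.045, with 16 above the table median (57.1%, against 49.1% of all peaks). Past 1.5-fold were 5 upward (17.9%, against 8.38%) and 1 downward (3.57%, against 5.43%). Among their promoters MAFK and MAFF, small MAF proteins that pair with zipper factors, were highest at 0.97 and 0.65, and ATF5 and MAFG lowest at -0.46 and -0.74. MAFK went from 28.6 to 34.8 reads per kb, and MAFG from 28.8 to 10.7. The family of zipper factors thus spread to both sides of the table median, as the 10 members did.

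The 18 genes of signaling to immediate early promoters, such as the MAP kinases, all had a promoter peak. Their 26 peaks had a median of -0.05, with 13 of 26 above the table median (against 49.1% of all peaks). Past 1.5-fold were 2 upward (7.69%, against 8.38%) and 0 downward (against 5.43%), so the list sat at the share of all peaks. The kinases MAPK8 and RPS6KA1 had the highest promoter values at 0.21 and 0.19, and MAPK9 and RPS6KA4 the lowest, both at -0.56. SRF itself, which encodes the CArG box factor, stood at -0.11.

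Of 25 other immediate early genes, 22 had a promoter peak, all but EGR3, ZFP36 and SIK1. Their 46 peaks had a median of 0.10, with 27 above the table median (58.7%, against 49.1% of all peaks). Past 1.5-fold were 5 upward (10.9%, against 8.38%) and 1 downward (2.17%, against 5.43%). EGR2, a paralog of EGR1, went from 17.3 to 22.9 reads per kb with a centered difference of 1.10 and an interval of 0.43 to 1.78, while EGR1 stood at -0.02. CSRNP1 and MAFF followed, both at 0.65, and MAFF is also in the list of zipper factors. The lowest were KLF2 at -0.54 and the kinase gene SGK1 at -0.85. The median of the list was thus close to that of the members, with wider extremes.

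Of 16 target genes of AP-1, 14 had a promoter peak, all but MMP1 and CXCL8. Their 33 peaks had a median of 0.09, with 21 above the table median (63.6%, against 49.1% of all peaks). Past 1.5-fold were 4 upward (12.1%, against 8.38%) and 0 downward (against 5.43%). The growth factor gene AREG and the cell cycle inhibitor gene CDKN1A had the highest promoter values at 0.47 and 0.36, and CCND1 and HBEGF the lowest at -0.30 and -0.40.

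Interferon-stimulated genes served as the reference for the stimulus. Of 20 such genes found in the annotation, 19 had a promoter peak, and OAS1 had none. Their 25 peaks had a median centered difference of 1.01, with 24 above the table median (96.0%, against 49.1% of all peaks). Past 1.5-fold were 18 upward (72.0%, against 8.38%) and 0 downward (against 5.43%). OASL and IFI6 were highest at 2.68 and 2.63, and ISG15 and SAMHD1 lowest at 0.16 and 0.04. OASL went from 5.06 to 20.1 reads per kb. The highest member peak, at 0.66, was below the median of this list. Epithelial markers, by comparison, had a median of -0.03 over 27 peaks, with KRT8 and CLDN3 highest at 0.52 and 0.20, and KRT19 and CDX2 lowest at -0.23 and -0.40. The 4 peaks near markers of other cell types had a median of 0.08, with COL1A1 at 0.33.

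**Figure D5:**
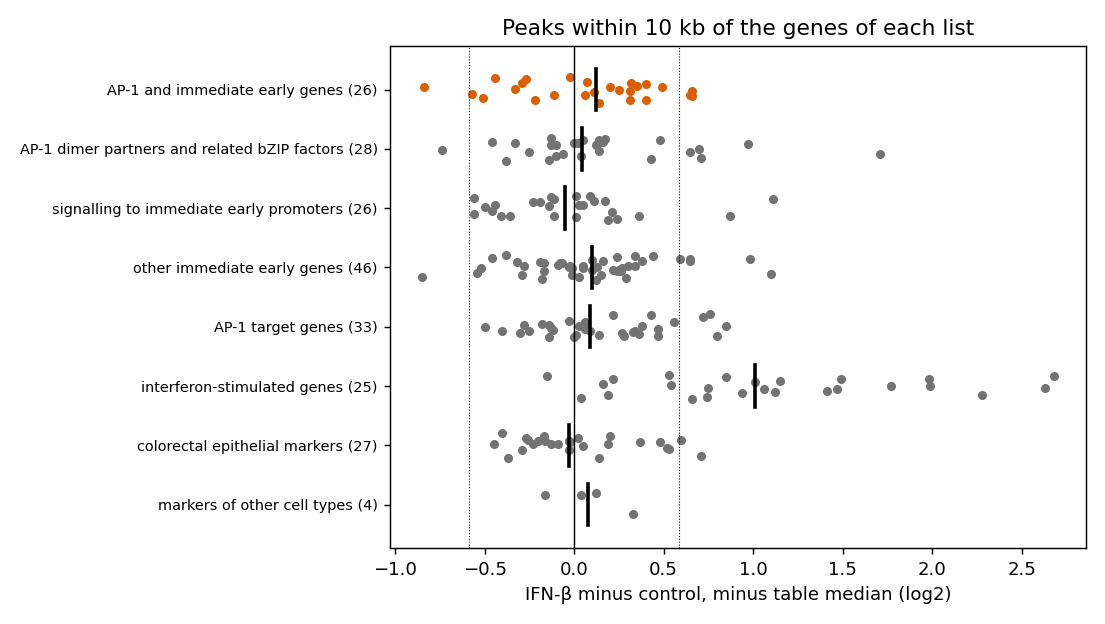
Each point is a peak within 10 kb of a gene of the list (number of peaks in brackets), placed by its centered log2 difference, with the list's median as a thick bar and 1.5-fold as dotted lines. The members (orange) spread between -0.84 and 0.66 around a median of 0.125, and the interferon-stimulated genes have a median of 1.01.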

How the data were processed

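H3K27ac was measured by ChIP-seq in 2 IFN-β and 2 control libraries. The submitters' processing notes name bcl2fastq 2.17, fastp 0.19.3, Bowtie2 (given as 2.25), SAMtools, MACS2, DiffBind and DESeq2. As the authors deposited them, the values are log2 means of the normalized reads in a peak (GRCh38), for each group and over both. The depth per library is not in these values, and the lowest values were 0.889 normalized reads in control and 0.664 after IFN-β. The table's other columns hold the authors' fold-changes, p-values and FDR, and were not used. The 39 sequence names of the table were all found in GRCh38.

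Distances were taken from peak centers to every GENCODE release 44 transcript start of a member. The promoter peak was the one nearest to a start, at most 1 kb away. Differences were centered on the median of all 20087 peaks, and past 1.5-fold means over 0.585 in log2 after centering. Counting intervals were exact binomial (Clopper-Pearson, 95%) on the IFN-β share of the group means times 2 libraries. Motifs were searched in the 500 bp either side of each center, the CArG box and NF-kB consensus by their usual degenerate forms. The ISRE core was searched as 2 GAAA runs with 2 free bases between. Both strands were read, overlaps between motifs were kept, and a palindromic site counted once. RefSeq promoters (GRCh38.p14) matched 9 of 10 members, and FOSL1 was not matched. Python 3.11.15, numpy 2.4.6, pandas 2.3.3, scipy 1.17.1, pysam 0.24.0, samtools 1.23.1 and matplotlib 3.10.9 were used, and the steps were tested on simulated data. All 10 members are named with every peak, and for each list the 2 highest and 2 lowest promoters. SRF, MAFF for its tie with CSRNP1 and, where a list is set beside the members, missing genes were named besides. The members and lists were chosen with earlier results of these data known. The alternatives tried changed the distance, the start sites, the centering, the fold and the way peaks were summed.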

Additional observations from a re-analysis of the deposited data

How the results depend on the processing

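No paired analysis was possible because the table gives group means and no value per library, and for the same reason no replicate could be left out. The number of member peaks was 26 within 10 kb, 12 within 1 kb and 43 within 20 kb, of which 16, 8 and 26 lay above the table median. The median over member peaks stayed between 0.09 and 0.195 under the other distances, start sites and centerings tried. The promoter median was 0.085. It became 0.195 when centered within 10 equal groups of the table by GC content, and 0.21 when all peaks within 10 kb were summed. At 2-fold in place of 1.5-fold, 0 member peaks were past the threshold rather than 4. Within 1 kb, the median was 0.00 for AP-1 target genes (from 0.09), 1.12 for interferon-stimulated genes (from 1.01) and 0.33 for markers of other cell types (from 0.08, with 1 peak left). Of the 10 promoters, 9 kept their sign in 7 of 7 alternatives, and EGR1 did so in 4 of 7, between -0.04 and 0.09. Another centering only shifts the baseline, so it could hardly turn values far from the table median. Summing leaves a gene with a single peak unchanged. FOSB fell to 0.24, under 1.5-fold, when its peaks were summed. Precision is limited by reads: FOSB had 13.1 reads per kb in control, and only 2 of 26 intervals excluded the table median.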
